A study of Mus musculus with 10 samples.

Results

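The genes that govern the G1 phase of the cell cycle were followed in the subventricular zone (SVZ), the germinal layer that lines the lateral ventricle of the mouse forebrain. They are the D cyclins Ccnd1, Ccnd2 and Ccnd3, their kinases Cdk4 and Cdk6, the Cip/Kip inhibitors Cdkn1a (p21), Cdkn1b (p27) and Cdkn1c (p57), and the Ink4 inhibitors Cdkn2c (p18) and Cdkn2d (p19). Members were all probes that the platform's annotation assigned to these 10 symbols, which gave 24 of the 45281 probes on the array, for 10 of 19057 named genes. In the annotation Ccnd1 and Cdkn1c lie on chromosome 7, Ccnd2 and Cdkn1b on chromosome 6, Ccnd3 and Cdkn1a on chromosome 17, Cdk4 on chromosome 10, Cdk6 on chromosome 5, Cdkn2c on chromosome 4 and Cdkn2d on chromosome 9. Samples came from 4 mice of the genotype Tlx overexpressing and from 5 wild type mice as controls. All were BL6 animals aged 8 weeks, all had been given a stroke by ischemia of the striatum on 1 side, and SVZ tissue of each was collected by laser microdissection. Tlx is the orphan nuclear receptor encoded by Nr2e1, and the study's title links it to neurogenesis after stroke. The labels do not give the promoter or cell type that drives the extra Tlx, the time after the stroke or the side that was sampled, and no animal without a stroke was analysed here. The Tlx overexpressing mice are called 2995, 3155, 3157 and 3163, and the wild type mice c1, c2, 2989, 2996 and 3164, as in the labels. The names fall in 3 ranges, 2989 to 2996, 3155 to 3164 and c1 to c2, whose meaning the labels do not state.

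D cyclins accumulate when mitogens reach a cell, bind Cdk4 or Cdk6 and direct these kinases to the retinoblastoma protein, whose phosphorylation releases E2F factors and lets the cell enter S phase. Ink4 proteins bind Cdk4 and Cdk6 and block their pairing with D cyclins, whereas Cip/Kip proteins act on assembled cyclin-kinase complexes and restrain Cdk2 in particular. In the adult SVZ, Ccnd2 is the D cyclin best known for its part in making new neurons, Cdkn1b limits the division of transit-amplifying progenitors, Cdkn1a and Cdkn1c are associated with stem cell quiescence, and Cdkn1a is a reported target of Tlx repression.

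Signals are given on the log2 scale after background correction and quantile normalization, so a difference of 1 is a doubling and the levels of different probes are not comparable. The detection p-value deposited with each signal was read as the share of negative control beads at least as bright. Between 20068 and 20590 probes per array were detected at a p under 0.05. A probe was tested for a genotype difference where it was detected in at least 4 of 9 mice, which 20456 probes and 20 of the 24 member probes met. The number of mice limits the precision. Mouse c1 was hybridised to 2 arrays, which were averaged and counted as 1 mouse. The repeats were less alike (Spearman's rho 0.922) than repeat 2 and the other wild type mice (0.928 to 0.938), and repeat 1 stood apart from those mice (0.910 to 0.922). Over the tested member probes the c1 repeats differed by a median of 0.08 and at most 0.33 log2 units, and for 16 of 20 probes this gap was smaller than the difference between the genotypes. The single probe of Nr2e1 itself, ILMN_2689177, read 5.27, 5.36, 5.61 and 5.46 in Tlx overexpressing mice 2995, 3155, 3157 and 3163, and 4.69, 5.02, 5.10, 5.19 and 5.07 in wild type mice c1, c2, 2989, 2996 and 3164. It was higher in every Tlx overexpressing mouse, by 0.41 (SE 0.11, limma adjusted p = 0.084), and did not pass the threshold of 0.05. Whether the probe covers the extra copy is not given in the labels. Markers of the labelled tissue were present. Of the neuroblast list, 7 of 10 genes were tested, Dcx among them, and the progenitor marker Egfr was also measured. The probes for Dlx5 and Cd24a were not detected in any mouse, and that for Tubb3 in 1 mouse. Of the striatal neuron list, 6 of 7 genes were tested too, so detection does not set the SVZ apart from nearby striatum.

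Cdk6 lay at the limit of detection, and the other 9 genes had at least 1 probe well above it. Of the 24 probes, 18 had a detection p of 0 in every mouse and 19 were under 0.01 in every mouse. The single Cdk6 probe, ILMN_1259714, had detection p-values of 0.536, 0.082, 0.141 and 0.035 in Tlx overexpressing mice 2995, 3155, 3157 and 3163, and of 0.101, 0.019, 0.033, 0.168 and 0.150 in wild type mice c1, c2, 2989, 2996 and 3164. It therefore counted as detected in 1 Tlx overexpressing and 2 wild type mice and was not tested. On the log2 scale it averaged 4.35 ± 0.12 across the 4 Tlx overexpressing mice and 4.44 ± 0.13 across the 5 wild type mice (SD), near the floor of the scale. The remaining untested probes were ILMN_1235724 for Ccnd2, with detection values of 0.0251 in wild type mouse c1, the only mouse that counted as detected, and up to 0.798, ILMN_2661849 for Ccnd3 (0.129 to 0.823) and ILMN_1228598 for Cdkn1b (0.828 to 0.998). Those for Ccnd3 and Cdkn1b were not detected in any mouse, although other probes of the same genes were bright. The weakest tested probe, ILMN_2923960 for Cdkn1b, was under 0.05 in 4 Tlx overexpressing and 3 wild type mice.

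**Figure D1:**
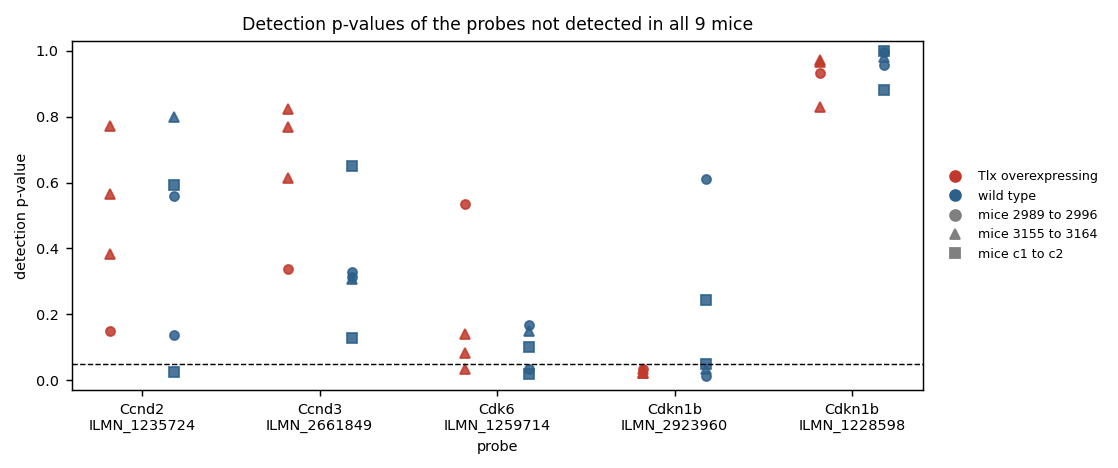
Detection p-value (y axis, linear) of the 5 member probes that were not detected in all 9 mice, with a point for each mouse and the threshold of 0.05 as a dashed line. Symbols give the range of the mouse number. The Cdk6 probe is under the line in 3 mice and ILMN_1228598 for Cdkn1b in none.

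A dim probe of Ccnd2 rose in the Tlx overexpressing mice and was the 1 probe among the 20 tested members with an adjusted p under 0.05 (limma, Benjamini-Hochberg over all 20456 probes). Over all tested probes this share was 0.939%. At an unadjusted p under 0.05 the count was 16 of 20 member probes, against 17.6% of all tested probes. Every Tlx overexpressing mouse lay above every wild type mouse for 8 of the 20, where 3.24% of all tested probes did so, and below every wild type mouse for 1, where 3.04% did so. These 9 probes belonged to Ccnd1, Ccnd2, Cdk4, Cdkn1a, Cdkn1b and Cdkn2c. In sign, 15 differences were positive and 5 negative (Tlx overexpressing minus wild type), with a median difference of 0.26 over the 20 probes, beside a median of 0.0037 over all tested probes. Probes of a gene read the same or other transcripts of it in the same mice, so these counts are not of independent measurements. By the brightest probe of each of the 9 tested genes, 0 passed the adjusted threshold and 7 had an unadjusted p under 0.05. Of these 9 probes, 3 had all Tlx overexpressing mice above all wild type mice, and 1 had them below. Members were chosen with earlier results of these data known, so the shares are not a test of the set. In microdissected tissue, a different number of cells that express a gene and a different amount of its RNA per cell cannot be told apart.

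**Figure D2:**
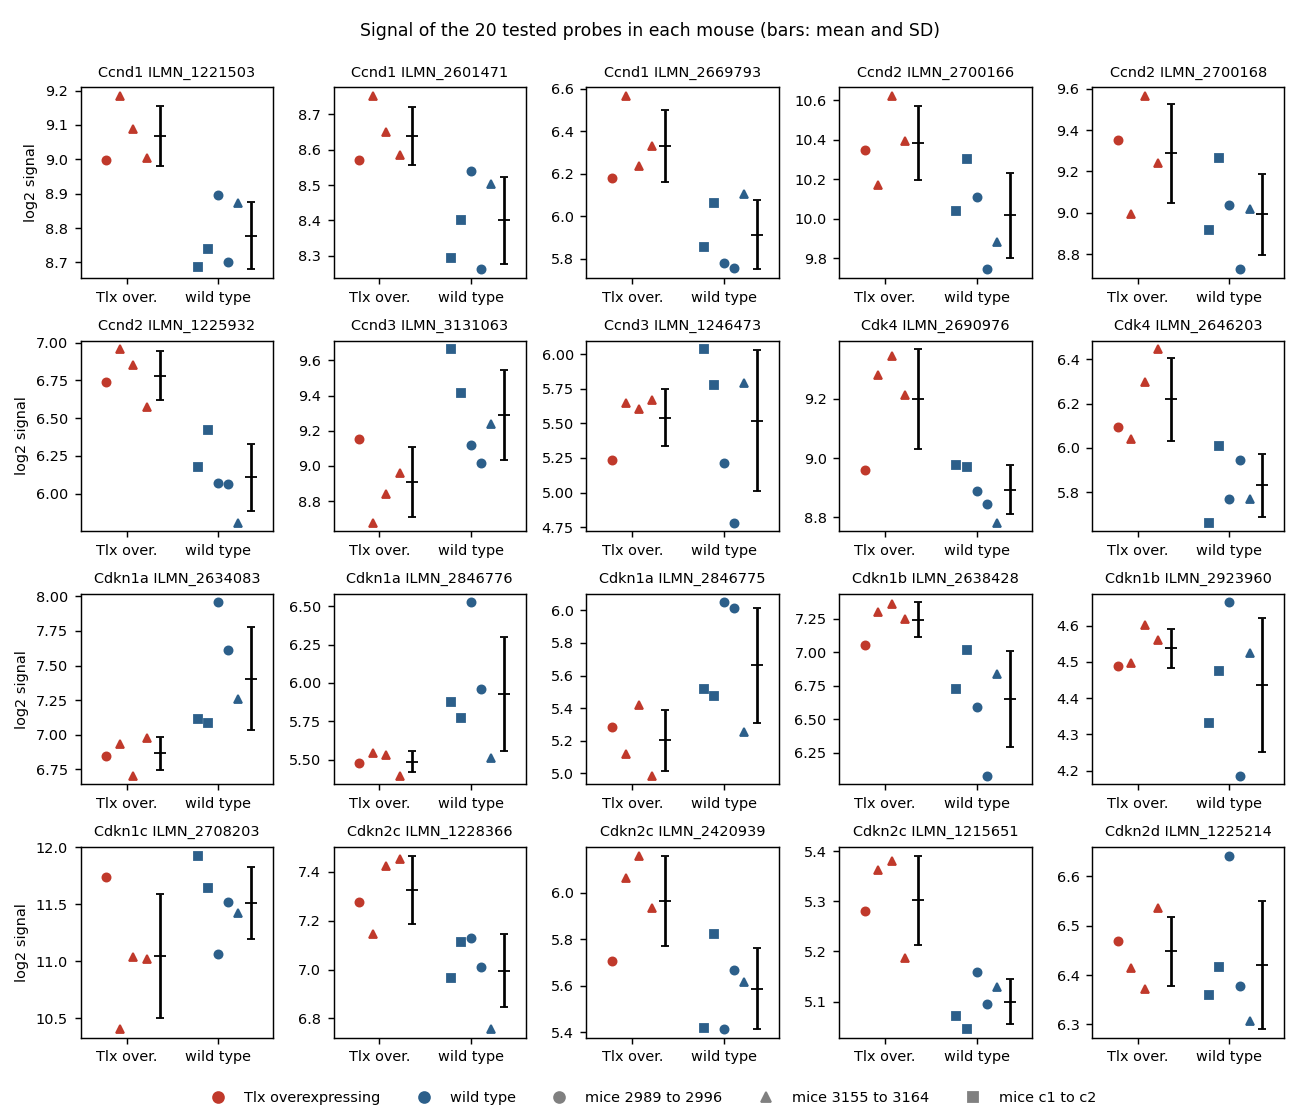
Log2 signal (y axis, a scale of its own in each panel) of the 20 tested probes in the 4 Tlx overexpressing mice (left) and the 5 wild type mice (right), with the mean and SD of each genotype beside the points. Symbol shapes give the range of the mouse number. The 3 Ccnd1 probes and the Ccnd2 probe ILMN_1225932 have every Tlx overexpressing mouse above every wild type mouse.

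All 3 probes of Ccnd1, the D cyclin induced by growth factor signalling, had higher values in every Tlx overexpressing mouse than in any wild type mouse, and none passed the adjusted threshold. The brightest, ILMN_1221503, read 8.999, 9.18, 9.09 and 9.0026 in Tlx overexpressing mice 2995, 3155, 3157 and 3163, and 8.69, 8.74, 8.90, 8.70 and 8.87 in wild type mice c1, c2, 2989, 2996 and 3164. The genotypes did not overlap, but the gap between them was narrow, with wild type mice 2989 and 3164 nearest. The difference was 0.29 (SE 0.08, limma adjusted p = 0.10), or 1.22-fold. The 2 arrays of c1 read 8.85 and 8.52 on this probe, a gap wider than the genotype difference, yet both lay below every Tlx overexpressing mouse. The dimmest probe, ILMN_2669793, had 6.33 ± 0.17 across the 4 Tlx overexpressing mice and 5.91 ± 0.16 across the 5 wild type mice (SD), a difference of 0.42 (SE 0.11, adjusted p = 0.078). ILMN_2601471 differed by 0.24 (SE 0.09, adjusted p = 0.17). Mouse 3155 was the highest of all 9 mice on all 3 probes. With number range as a block, the 3 differences were 0.21, 0.16 and 0.34 for ILMN_1221503, ILMN_2601471 and ILMN_2669793 (adjusted p of 0.42, 0.56 and 0.26).

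Ccnd2 had the only called probe. ILMN_1225932, annotated to a cDNA clone and not to the RefSeq transcript of the other bright probes, read 6.74, 6.96, 6.85 and 6.58 in Tlx overexpressing mice 2995, 3155, 3157 and 3163, and 6.17, 6.42, 6.07, 6.07 and 5.81 in wild type mice c1, c2, 2989, 2996 and 3164. The genotypes did not overlap, and wild type mouse c2 came nearest to the lowest Tlx overexpressing mouse, 3163. The signal rose by 0.67 (SE 0.12, 95% interval 0.41 to 0.93, adjusted p = 0.026), or 1.59-fold. The difference was 0.67 among mice 2995, 2989 and 2996, 0.99 among mice 3155, 3157, 3163 and 3164, and 0.84 with the range as a block (adjusted p = 0.025). The call was lost without Tlx overexpressing mouse 3155 (0.61, adjusted p = 0.082) or 3157 (0.65, adjusted p = 0.12), and without wild type mouse c1 (0.69, adjusted p = 0.055) or 2996 (0.66, adjusted p = 0.051). The 2 probes on the RefSeq transcript were much brighter, showed the same sign and did not pass. ILMN_2700166 averaged 10.38 ± 0.19 across the 4 Tlx overexpressing mice and 10.02 ± 0.21 across the 5 wild type mice (SD), a difference of 0.37 (SE 0.12, adjusted p = 0.14). On it mouse 3155, the highest on the called probe, was the lowest Tlx overexpressing mouse at 10.17 and lay below wild type mouse c2 at 10.30. ILMN_2700168 differed by 0.29 (SE 0.13, adjusted p = 0.25), with a wider overlap. On it mouse 3155 (8.99) lay below wild type mice c2 (9.27), 2989 (9.04) and 3164 (9.02), and mouse 3163 (9.24) below c2. The probes of Ccnd2 thus ordered the mice differently.

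Ccnd3, a D cyclin best known from lymphoid cells, had 2 tested probes that did not move alike. ILMN_3131063 read 9.15, 8.68, 8.84 and 8.96 in Tlx overexpressing mice 2995, 3155, 3157 and 3163, and 9.66, 9.41, 9.12, 9.01 and 9.24 in wild type mice c1, c2, 2989, 2996 and 3164. Mouse 2995 lay inside the wild type range and the other Tlx overexpressing mice below it. The difference was -0.38 (SE 0.13, adjusted p = 0.16), and -0.18 with number range as a block (adjusted p = 0.62). By range it was 0.09 for mice 2995, 2989 and 2996 and -0.41 for mice 3155, 3157, 3163 and 3164. ILMN_1246473, annotated to another RefSeq transcript of the gene, had 5.54 ± 0.21 across the 4 Tlx overexpressing mice and 5.52 ± 0.51 across the 5 wild type mice (SD), where the values ran from 4.78 in mouse 2996 to 6.03 in c1. Its difference of 0.02 had a 95% interval of -0.44 to 0.48.

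Both probes of Cdk4, the D cyclin kinase with tested probes, had higher means in the Tlx overexpressing mice without passing. ILMN_2690976 read 8.96, 9.28, 9.34 and 9.21 in Tlx overexpressing mice 2995, 3155, 3157 and 3163, and 8.975, 8.97, 8.89, 8.84 and 8.78 in wild type mice c1, c2, 2989, 2996 and 3164. Mouse 2995 lay within the wild type range and the other 3 Tlx overexpressing mice above all wild type mice. The difference was 0.31 (SE 0.09, adjusted p = 0.11), and 0.39 (adjusted p = 0.032) without mouse 2995. By range it was 0.09 for mice 2995, 2989 and 2996 and 0.50 for mice 3155, 3157, 3163 and 3164. ILMN_2646203 separated the genotypes, with 6.04 to 6.45 in Tlx overexpressing mice and 5.66 to 6.01 in wild type mice, and differed by 0.39 (SE 0.10, adjusted p = 0.090). Both probes were positive in both ranges of the mouse number.

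The start-site windows of Cdk4 and Cdkn2c are shown because these members had probes that separated the genotypes and windows that held a searched motif. Windows of 300 bases, from 250 before to 50 after a transcript start, came from RefSeq (GRCm38.p6), and 7 of the 10 genes had 10 of them. Ccnd1, Ccnd2 and Cdkn1c had no entry. Capitals mark matches on either strand to AAGTCA, the half-site bound by Tlx, to the E-box CACGTG, the site of Myc and related factors, or to the E2F-type words TTCCCGC and TTGGCGC. Over all 32851 windows, 15.1% held AAGTCA, 7.15% held CACGTG, 4.60% held TTCCCGC and 2.45% held TTGGCGC.

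Cdk4, chr10:127063285-127063584, plus strand: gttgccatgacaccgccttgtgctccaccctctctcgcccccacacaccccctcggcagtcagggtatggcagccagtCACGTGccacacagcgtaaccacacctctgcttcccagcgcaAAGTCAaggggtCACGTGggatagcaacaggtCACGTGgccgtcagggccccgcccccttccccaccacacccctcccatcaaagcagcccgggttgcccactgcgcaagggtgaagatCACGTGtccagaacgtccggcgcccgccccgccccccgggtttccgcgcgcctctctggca
Cdkn2c, upstream start, chr4:109666707-109667006, minus strand: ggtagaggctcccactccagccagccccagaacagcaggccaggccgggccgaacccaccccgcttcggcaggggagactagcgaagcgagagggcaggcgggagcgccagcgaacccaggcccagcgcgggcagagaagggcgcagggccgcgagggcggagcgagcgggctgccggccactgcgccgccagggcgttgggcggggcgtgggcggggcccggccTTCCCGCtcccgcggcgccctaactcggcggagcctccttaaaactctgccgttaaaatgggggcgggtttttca
Cdkn2c, downstream start, chr4:109665323-109665622, minus strand: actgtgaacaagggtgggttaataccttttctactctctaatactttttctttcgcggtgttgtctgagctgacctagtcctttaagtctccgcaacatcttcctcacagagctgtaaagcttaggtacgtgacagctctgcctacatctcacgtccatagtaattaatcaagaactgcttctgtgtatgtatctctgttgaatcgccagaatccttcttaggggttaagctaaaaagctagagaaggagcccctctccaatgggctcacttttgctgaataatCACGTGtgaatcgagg

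The Cdk4 window held AAGTCA 130 bases before the start and 4 copies of the E-box, at 172, 118, 98 and 11 bases before it, and only 8 of all windows (0.0244%) held 4 or more copies, a count made after the sequence was seen. AAGTCA did not occur in the windows of the other members, Cdkn1a included. The upstream Cdkn2c window held TTCCCGC 25 bases before the start, and the downstream one an E-box 34 bases after it. No searched word occurred in the windows of Cdkn1a, Cdkn1b, Cdkn2d or Ccnd3, and that of Cdk6 held an E-box. A match describes the letters of these windows and is not a site shown to be bound.

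Among the Cip/Kip inhibitors, Cdkn1a was lower and Cdkn1b higher in the Tlx overexpressing mice, and neither passed. Cdkn1a encodes p21, which p53 induces and which stops cells before S phase. Its brightest probe, ILMN_2634083, read 6.85, 6.93, 6.70 and 6.98 in Tlx overexpressing mice 2995, 3155, 3157 and 3163, and 7.12, 7.08, 7.96, 7.61 and 7.26 in wild type mice c1, c2, 2989, 2996 and 3164. All Tlx overexpressing mice lay below all wild type mice, by a narrow gap to c1 and c2, while wild type mice 2989 and 2996 were far higher. The difference was -0.54 (SE 0.16, 95% interval -0.89 to -0.19, adjusted p = 0.11). The differences of the other 2 probes were also negative, -0.44 for ILMN_2846776 (SE 0.16, adjusted p = 0.17) and -0.46 for ILMN_2846775 (SE 0.16, adjusted p = 0.16). On both of these probes the genotypes overlapped. Without wild type mouse 2989 that of ILMN_2846776 was -0.29 (adjusted p = 0.18). The differences were larger in the lower range of mouse numbers. Among mice 2995, 2989 and 2996 the differences of ILMN_2634083, ILMN_2846776 and ILMN_2846775 were -0.94, -0.77 and -0.75, and among mice 3155, 3157, 3163 and 3164 they were -0.39, -0.02 and -0.08. The Tlx overexpressing mice also varied less, with an SD of 0.12 against 0.37 in wild type mice on ILMN_2634083, a contrast that was not tested.

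Cdkn1b encodes p27, which holds the kinases inactive in resting and differentiating cells. Its bright probe ILMN_2638428 read 7.06, 7.30, 7.36 and 7.25 in Tlx overexpressing mice 2995, 3155, 3157 and 3163, and 6.73, 7.02, 6.59, 6.08 and 6.84 in wild type mice c1, c2, 2989, 2996 and 3164. The genotypes did not overlap, with c2 just under mouse 2995 and mouse 2996 well below the rest. The difference was 0.59 (SE 0.16, adjusted p = 0.084), next in size among the 20 to that of the called Ccnd2 probe. By range it was 0.72 for mice 2995, 2989 and 2996 and 0.46 for mice 3155, 3157, 3163 and 3164. The dim probe ILMN_2923960, at 4.54 in the Tlx overexpressing mice and 4.44 in wild type mice, differed by 0.10 (SE 0.10, adjusted p = 0.62).

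Cdkn1c, which encodes p57 and is expressed from the maternal allele, was measured by a single bright probe, ILMN_2708203. It read 11.74, 10.40, 11.03 and 11.01 in Tlx overexpressing mice 2995, 3155, 3157 and 3163, and 11.93, 11.64, 11.06, 11.52 and 11.42 in wild type mice c1, c2, 2989, 2996 and 3164. The genotypes overlapped, since mouse 2995 was the second highest of the 9 and wild type mouse 2989 lay near mice 3157 and 3163. The difference of -0.47 (SE 0.22, 95% interval -0.95 to 0.02, adjusted p = 0.30) did not pass. It was -0.25 without Tlx overexpressing mouse 3155 (adjusted p = 0.64) and -0.11 with number range as a block (adjusted p = 0.89). It had opposite signs in the 2 ranges, 0.45 among mice 2995, 2989 and 2996 and -0.60 among mice 3155, 3157, 3163 and 3164.

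Cdkn2c, the Ink4 inhibitor p18, had 3 detected probes with higher means in the Tlx overexpressing mice, and none passed. ILMN_1228366 read 7.28, 7.15, 7.43 and 7.45 in Tlx overexpressing mice 2995, 3155, 3157 and 3163, and 6.97, 7.11, 7.13, 7.01 and 6.76 in wild type mice c1, c2, 2989, 2996 and 3164. The genotypes were separated by 0.02 log2 units between mouse 3155 and wild type mouse 2989. The difference was 0.33 (SE 0.10, adjusted p = 0.11). ILMN_2420939 differed by 0.38 (SE 0.11, adjusted p = 0.11) with overlap between mouse 2995 and wild type mouse c2, and ILMN_1215651 by 0.20 (SE 0.07, adjusted p = 0.18) without overlap. Cdkn2d, the Ink4 inhibitor p19, showed no called difference on its single probe, ILMN_1225214. It averaged 6.45 ± 0.07 across the 4 Tlx overexpressing mice and 6.42 ± 0.13 across the 5 wild type mice (SD), and its difference of 0.03 had a 95% interval of -0.16 to 0.21.

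**Figure D3:**
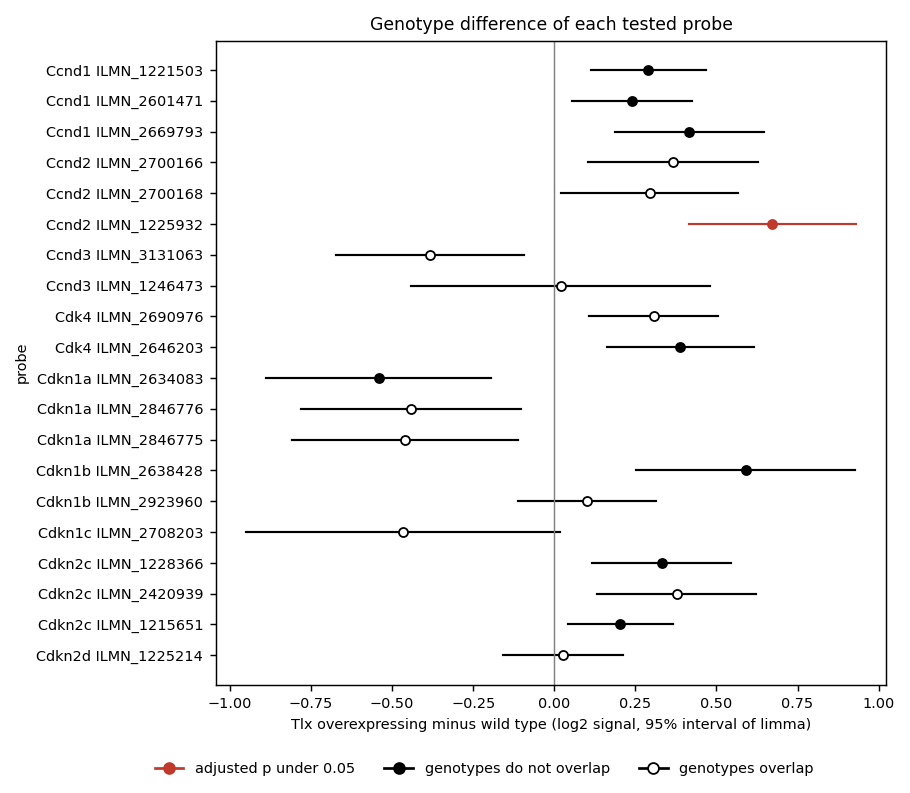
Genotype difference (x axis, log2 signal, Tlx overexpressing minus wild type) of the 20 tested probes with the 95% interval of the limma fit. Red marks the probe with an adjusted p under 0.05, and filled points mark probes on which the genotypes did not overlap. The interval lies above 0 for all probes of Ccnd1, Ccnd2, Cdk4 and Cdkn2c and below 0 for all 3 of Cdkn1a.

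Of the 7 genes with more than 1 tested probe, Ccnd3 alone had probes of opposite sign. Within both ranges of the mouse number that hold both genotypes, 16 of the 20 probes kept the sign they had over all mice. The exceptions were both Ccnd3 probes, Cdkn1c and Cdkn2d. The first range compares 1 Tlx overexpressing with 2 wild type mice and the second 3 with 1, so these values carry no test.

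Marker genes of other cell types moved with some members. The list for the choroid plexus, whose epithelium secretes cerebrospinal fluid, was lower in the Tlx overexpressing mice for 12 of 12 tested genes, 2 of which, Calml4 and Steap1, fell past the threshold. Its level, the mean of centred log2 signals, was 0.15, -0.9955, -0.50 and -0.34 in Tlx overexpressing mice 2995, 3155, 3157 and 3163, and 0.09 to 0.64 in wild type mice. Mouse 2995, the Tlx overexpressing mouse with the highest signals on Cdkn1c ILMN_2708203 and Ccnd3 ILMN_3131063, was the one inside the wild type range, and mouse 3155 had the lowest level and the lowest signals on those probes. On the other tested Ccnd3 probe, ILMN_1246473, the order differed, with 5.23 in mouse 2995 and 5.65 in mouse 3155. With this level as a covariate the difference of Cdkn1c was 0.46 (SE 0.13, adjusted p = 0.72), the reverse of its sign without the covariate, and that of Ccnd3 ILMN_3131063 was 0.03 (adjusted p = 0.99). Cdkn1a ILMN_2634083 was -0.77 (SE 0.25, adjusted p = 0.81), Cdkn1b ILMN_2638428 was 0.49 (SE 0.25, adjusted p = 0.93) and the called Ccnd2 probe was 0.59 (SE 0.19, adjusted p = 0.82). The 3 Ccnd1 probes ILMN_1221503, ILMN_2601471 and ILMN_2669793 were 0.13, 0.07 and 0.23 (adjusted p of 0.95, 0.98 and 0.94), Cdk4 ILMN_2690976 was 0.16 (adjusted p = 0.95), and Cdkn2c ILMN_2420939 and ILMN_1215651 were 0.17 and 0.12 (adjusted p = 0.96 for both). Among the other probes of these genes, Cdkn1b ILMN_2923960 was 0.0091 with the covariate (0.10 without it). Ccnd3 ILMN_1246473 was 0.014 (0.019 without it). The remaining probes of these genes were not smaller in size with the covariate. Cdk4 ILMN_2646203 was 0.40 (0.39 without it) and Cdkn2c ILMN_1228366 was 0.38 (0.33 without it). The bright Ccnd2 probes ILMN_2700166 and ILMN_2700168 were 0.45 and 0.43, against 0.37 and 0.29 without the covariate. In size, 13 of the 20 differences were smaller with the covariate than without it, and 0.0244% of all tested probes were called, against 0.939% without it. The level followed genotype in all mice but 2995, so this fit cannot tell level and genotype apart. The SE of the called Ccnd2 probe was 0.19 with the covariate and 0.12 without it.

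Of all 20456 tested probes, 10410 were higher in the Tlx overexpressing mice, and 0.939% were called in either direction. The neuroblast list was higher for 7 of 7 tested genes, 2 of which rose past the threshold. These were Igfbpl1 (0.72, limma adjusted p = 0.033) and Dcx (0.59, limma adjusted p = 0.038). The level of the list was 0.02 to 0.32 in Tlx overexpressing mice and -0.28 to 0.05 in wild type mice, where c2 was the highest. The list of DNA replication and mitosis genes was higher for 19 of 19, with levels of -0.03 to 0.43 in Tlx overexpressing mice and -0.28 to 0.04 in wild type mice, and 2 of the 19, Cenpa and Cdca3, rose past the threshold. Of the progenitor list, 3 of 3 tested genes were higher and Egfr rose by 0.73 (SE 0.10, adjusted p = 0.0070), with list levels of -0.02 to 0.44 in Tlx overexpressing mice and -0.42 to 0.03 in wild type mice. Its other tested genes are shared, Dlx2 with the neuroblast list and Top2a with that of DNA replication and mitosis genes. The levels of the 3 lists are therefore not independent. Wild type mouse c2, the highest of its genotype on these 3 lists, was also the highest wild type mouse on all 3 tested Ccnd2 probes, on ILMN_2646203 of Cdk4, on ILMN_2638428 of Cdkn1b and on ILMN_2420939 of Cdkn2c. On the other tested probes it was not, the brighter Cdk4 probe and all 3 Ccnd1 probes among them, and c1, 2989 or 3164 was the highest wild type mouse there. Microglial markers were higher for 6 of 6 genes, with none past the threshold, and levels of 0.06 to 0.27 in Tlx overexpressing mice and -0.25 to 0.13 in wild type mice. Astrocyte and stem cell markers were lower for 6 of 8 genes, with Hopx past the threshold. Their level was -0.15 to -0.08 in Tlx overexpressing mice and 0.00 to 0.30 in wild type mice, with mouse 2989, the highest wild type mouse for Cdkn1a, at the top. The part of these cell types, the choroid plexus included, in the differences of the members was not tested.

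**Figure D4:**
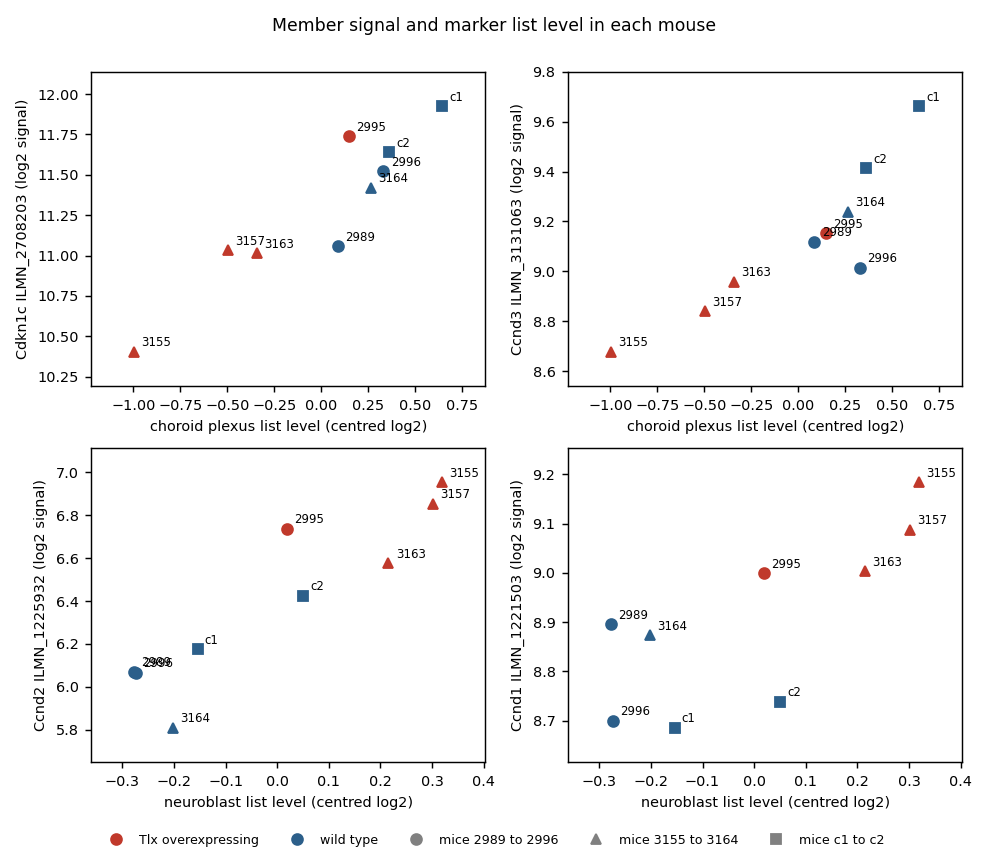
Log2 signal of 4 member probes (y axes) in each mouse against the level of a marker list (x axes, mean centred log2 signal), choroid plexus in the upper panels and neuroblast in the lower ones. Mouse 3155 has the lowest choroid plexus level (-0.9955) and the lowest signals on Cdkn1c ILMN_2708203 and Ccnd3 ILMN_3131063. The 4 Tlx overexpressing mice have the highest signals on Ccnd2 ILMN_1225932 and Ccnd1 ILMN_1221503 in the lower panels.

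The other regulators of the G1 to S step had no member past the threshold. The list held 36 genes (Rb and E2F family members, cyclin E, Cdk2, Cdc25a, ubiquitin ligase parts and others). Of these, 27 were tested, and 17 were higher and 10 lower. Among the 27, 0 passed the adjusted threshold and 6 had an unadjusted p under 0.05, beside 17.6% of all tested probes. The median difference of the 27 genes was 0.0054, against 0.29 for the brightest probes of the 9 tested members. The smallest p-values belonged to E2f3, an activator of S phase genes, with 0.40 (SE 0.10, adjusted p = 0.072), and Cables1, a Cdk-binding adaptor, with -0.32 (SE 0.10, adjusted p = 0.11). E2f2 (0.26, adjusted p = 0.17) and the repressor-type E2f4 (-0.22, adjusted p = 0.22) came next. The kinase partner of cyclin E, Cdk2, read 7.40 ± 0.23 across the 4 Tlx overexpressing mice and 7.26 ± 0.17 across the 5 wild type mice (SD). Probes for Myc and Mycn were not detected in any mouse.

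Other p53 targets were read beside Cdkn1a. Of 18 listed genes 13 were tested, 3 were higher and 10 lower, with a median difference of -0.06. Among the 13, 0 passed the adjusted threshold and 1 had an unadjusted p under 0.05, beside 17.6% of all tested probes. Ccng1 had the smallest p-value, with 9.03 ± 0.03 across the 4 Tlx overexpressing mice and 9.42 ± 0.22 across the 5 wild type mice (SD), a difference of -0.39 (SE 0.11, adjusted p = 0.093). It separated the genotypes, as the brightest Cdkn1a probe did and the other Cdkn1a probes did not. Plk2 (-0.24, adjusted p = 0.40), Mdm2 (-0.13, adjusted p = 0.42) and Bbc3 (0.15, adjusted p = 0.52) followed. The level of the list was highest in wild type mice 2989 (0.16) and 2996 (0.10), the mice with the highest Cdkn1a signal.

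Likeness of pattern was measured as the root mean square (RMS) difference between centred log2 signals over the 9 mice, for the 3 members whose brightest probe varied most. For Cdkn1c, which varied by an SD of 0.47, the nearest genes were the lysyl oxidase Loxl1 (RMS difference 0.09), Ctnnal1 (0.11) and Capn6 (0.12). The median over all tested probes of other named genes was 0.47. For Cdkn1a (SD 0.40) they were the fatty acid desaturase Scd1 (0.06), the astrocyte connexin gene Gjb6 (0.12) and Ank3 (0.13), with a median of 0.40. For Cdkn1b (SD 0.41) they were Sema4b (0.09), Ctnnb1 (0.10) and the replication helicase gene Mcm7 (0.11), with a median of 0.41. Scd1 followed Cdkn1a closely, with 7.82, 8.00, 7.67 and 8.04 in Tlx overexpressing mice 2995, 3155, 3157 and 3163, and 8.06, 8.00, 8.91, 8.69 and 8.22 in wild type mice c1, c2, 2989, 2996 and 3164. The points share arrays and genotypes, and the nearest genes were picked from all named ones.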

How the data were processed

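Biotinylated cRNA was hybridised to Illumina mouse bead arrays, per the labels' protocols. Both tables the authors deposited hold linear probe intensity. The one named as not normalized had columns with upper quartiles of 85.66 and 1 shared maximum, so it was taken as already quantile-normalized. Columns of the other, the starting point here, kept the same probe ranks and had medians of 36.8 to 43.2. The authors' software and background treatment are not given in the sources used here. The deposited detection p-value is not defined in the file headers.

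Background was corrected by normexp (offset 16), with the negative control distribution worked out from detection p-values, before quantile normalization and log2 transformation (limma 3.58.1 in R 4.3.3). A probe of c1 counted as detected on the mean p of its 2 arrays. Symbols came from the platform annotation, in which 34885 probes had 1 symbol, 18 several and 10378 none, and 34807 were matched to RefSeq. Genotypes were compared with lmFit and eBayes over 20456 probes, two-sided, with Benjamini-Hochberg adjustment and a threshold of 0.05. The fit was also run on simulated data in which probes varied independently. That run left out number range, cell makeup and variation shared by probes, so it is no check of the calls made here. Members, lists and tests were chosen with earlier results of these data known. All member probes are named, and of other lists the genes past the threshold or up to 4 with the smallest p, by their brightest tested probe. Marker genes named to check the tissue or as undetected, and Cdk2, Myc and Mycn, were chosen after their values were seen. Nothing in the labels pairs mice of the 2 genotypes. Marker lists whose differences are not described above (ependymal, oligodendrocyte, endothelial and striatal neuron) had 1 called gene, Mia, which fell. Their median differences were -0.21, 0.15, -0.15 and -0.07.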

Additional observations from a re-analysis of the deposited data

Results flagged for a closer look

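Of 48 groups of 4 or 5 mice examined, 1 per genotype for each of the 24 member probes, 1 held a mouse set apart from its group by Dixon's test. On the Ccnd3 probe ILMN_1246473, Tlx overexpressing mouse 2995 read 5.23, and the nearest of the other Tlx overexpressing mice 5.61. That gap was 0.858 of the range of the group. Chance sets about 1 in 20 such groups apart. Wild type mice 2989 (5.21) and 2996 (4.78), of the same range of mouse numbers, were low on this probe too.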

How the results depend on the processing

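In 20 alternatives to the main processing, the called Ccnd2 probe ILMN_1225932 stayed positive (0.48 to 0.84, adjusted p of 0.013 to 0.82) and lost its call in 6. With no filter on dim probes (45281 tested, 0.126% of them called) or with choroid plexus level as covariate (0.0244% of all probes called), 0 member probes were called. With array weights (2.98% called) 3 were, the Ccnd2 probe, Cdk4 ILMN_2646203 and Cdkn1b ILMN_2638428. On leaving out a mouse the count ran from 0 to 4. It was 0 without 3155, 3157, c1 or 2996, when 0.347%, 0.127%, 0.308% and 0.411% of all probes were called. It was 4 without 2995, namely the Ccnd2 probe, Ccnd1 ILMN_2669793, Cdk4 ILMN_2690976 and Cdkn2c ILMN_2420939, when 3.71% of all probes were called. No member was called lower in any alternative. The count of member probes with all Tlx overexpressing mice above all wild type mice was 8, 6 when arrays were scaled to 1 median, and 8 to 10 on leaving out a mouse. Over all tested probes the share was 3.24%, and 3.23% with that scaling. The count was 10 without 2995 or c2, when the share over all tested probes was 6.56% and 5.46%. The count below was 1, and 1 to 3 on leaving out a mouse, with 3 without 2995 or 3164. Without these mice 7.3% and 4.26% of all tested probes lay below, against 3.04% in the main processing. Of the G1/S genes, E2f3 was called with array weights and without 2995, so that 0 to 1 were called on leaving out a mouse. Their median difference was 0.0335 with scaling to 1 median, -0.0285 with the covariate and 0.0366 with array weights. Signs turned for Ccnd3 ILMN_1246473 with an offset of 50 (-0.0039), no background correction (-0.0002) and array weights (-0.056), and it ran from -0.17 to 0.15 on leaving out a mouse. Cdkn2d ran from -0.0020 to 0.083 on leaving out a mouse. With the covariate Ccnd3 ILMN_3131063 (0.026) and Cdkn1c (0.46) turned. The causes were not tested. Either array of c1 alone left 1 member probe called. No paired analysis was possible because the labels give no number shared by mice of the 2 genotypes. Probes near background, with Cdk6 among them, cannot show small differences.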
